A study of Stipitochalara longipes with 7 samples.

Results

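Gene expression of the litter fungus Stipitochalara longipes (Chalara longipesis in the labels) was compared between 10 and 5 months of growth on pine needles. All libraries harvested at 10 months (3) and at 5 months (2) were taken, which are 5 of the 7 libraries of a time course that also has 2 libraries at 2 months. Both harvests came from microcosms of sand (85 g) and dry Scots pine needles (11 g) that had been sterilised by gamma radiation. The microcosms were inoculated with single needles on which the fungus had grown for 2 months on agar without nitrogen, received 20 ml of 100 mM ammonium chloride and were sealed at 20 °C, per the labels' protocols. No other organism was added, so the samples are a model of decay by 1 fungus on sterile litter with added nitrogen. At each time 4 microcosms were harvested. Libraries of a harvest are biological replicates per the labels, which do not say which microcosm each came from.

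Pine needles are a hard substrate for a fungus: they are rich in lignin, waxes and phenolic compounds and poor in nitrogen. Ascomycetes that live in such litter secrete hydrolases and oxidases that open the plant cell wall, take up the sugars and amino acids that are released, and meet a changing substrate as the easily used compounds are consumed. The needle litter of these microcosms held 0.42% nitrogen and about 25% lignin, with a carbon to nitrogen ratio of 120, per the labels' protocols.

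Expression was measured as total gene reads on 19765 gene models, each known by its JGI (Joint Genome Institute) protein identifier. The files do not pair these identifiers with names, products or positions, so the gene lists for cell wall enzymes, oxidases, nitrogen uptake and growth matched no gene model and no function can be given to a gene model. At most 2 gene models that rose and 2 that fell are therefore named, and the others are described by their level, size and length. The length of a model was recovered from the deposited RPKM and count columns. In these bulk libraries, more or fewer active hyphae of one kind and more or less of a transcript per hypha cannot be told apart.

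The 5-month libraries had 52554481 and 20009777 total gene reads, and the 10-month libraries had 23125772, 29762444 and 39368275. A group of 8 gene models, each averaging 1% or more of a library, took 86.9% and 30.0% of them in 5-month replicates 1 and 2. They took 34.1%, 51.6% and 71.2% in 10-month replicates 1, 2 and 3. The reads left for all other gene models numbered 6880842 and 14010114 at 5 months and 15234169, 14405478 and 11345883 at 10 months. These limit the counting precision, whereas the spread between libraries also enters the test. Levels below are scaled CPM, which is CPM with the library size adjusted by the median of ratios over the 12201 tested gene models that had reads in all 5 libraries. Spearman correlation of log2 levels was 0.955 between the 5-month libraries and 0.923 to 0.972 among the 10-month libraries, against 0.866 to 0.929 between harvests. The pairs of 10-month replicate 3 with replicates 1 and 2 were the lowest within a harvest (0.923 and 0.93), so the correlations within and between harvests overlapped slightly.

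**Figure D1:**
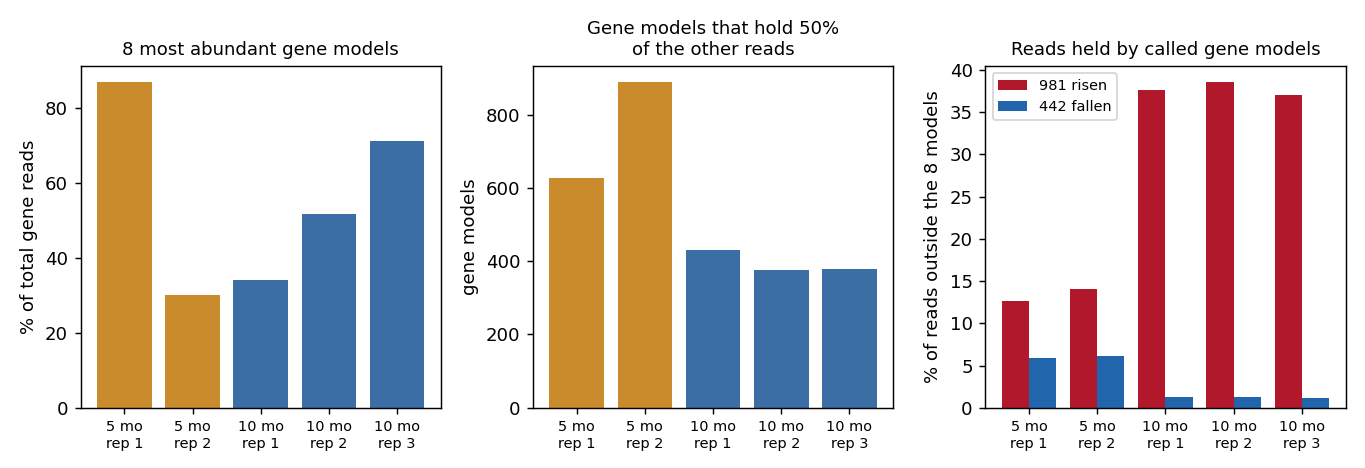
Values of the 5-month (ochre) and 10-month (blue) libraries. Left, share of total gene reads on the 8 most abundant gene models, from 30.0% to 86.9% at 5 months and from 34.1% to 71.2% at 10 months. Middle, number of gene models that together hold 50% of the other reads, 627 and 889 at 5 months against 375 to 430 at 10 months. Right, share of the other reads on gene models that rose (red) or fell (blue).

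The joint share of the 8 abundant models did not separate the harvests. Its mean at 5 months was 58.45% ± 40.3 (SD, n = 2). The mean at 10 months was 52.3% ± 18.5 (SD, n = 3), with an exact two-sided permutation p of 1. With 3 libraries against 2, this test cannot give a p below 0.2. The 95% Wilson intervals were at most 0.0201 percentage points to either side, so counting error was small beside the spread between libraries. Without 5-month replicate 1 the 10-month mean was 22.3 points higher instead of 6.14 points lower, so the direction of this difference rests on single libraries.

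Of the 8 abundant models, 7 varied between libraries of one harvest more than between the harvests. Their scaled levels were highest in 5-month replicate 1 and lowest in 5-month replicate 2, and the 10-month libraries lay between. Gene model 391853 (1039 bp), the most abundant and singled out after its values were seen, stood at 704100 and 55260 scaled CPM at 5 months and at 103300, 168000 and 382300 at 10 months. Over the 5 libraries the highest level of each of these 7 models was 12.7 to 84.6 times its lowest. None of the 7 passed the test, with log2 fold changes of -1.43 to -0.54 and edgeR adjusted p of 0.55 to 0.805. The tables hold no sequence, so whether reads of ribosomal RNA fall on these 7 models was not tested.

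Gene model 348936 (861 bp), the eighth, behaved differently and rose. Its level was 3920 and 2574 scaled CPM at 5 months and 14680, 16790 and 12340 at 10 months. Every 10-month library lay above both 5-month libraries, and the gap between the harvests was wider than the range within either. The mean rose from 3247 ± 952 (SD, n = 2) to 14610 ± 2226 (SD, n = 3). On the log2 scale this was 2.17 ± 0.46 (SE), at an adjusted p of 0.0219 by edgeR. Of the rises, it had the highest 10-month level. Per kilobase of model its mean level was 3771 scaled CPM at 5 months and 16960 at 10 months.

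**Figure D2:**
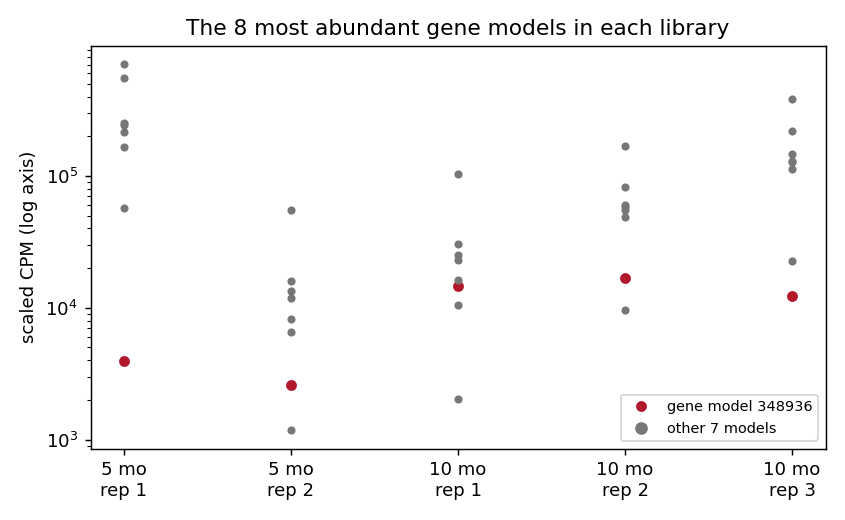
Scaled CPM (log axis) of the 8 most abundant gene models in each library, with gene model 348936 in red and the other 7 in grey. The 7 grey models are highest in 5-month replicate 1 and lowest in 5-month replicate 2, whereas gene model 348936 is higher in all 3 libraries at 10 months (12340 to 16790) than in those at 5 months (2574 and 3920).

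Between 5 and 10 months, 1424 of the 14298 gene models tested changed (9.96%). Of these, 982 rose (6.87%) and 442 fell (3.09%), by edgeR's quasi-likelihood test on these 5 libraries. A call needed a Benjamini-Hochberg adjusted p below 0.05, whatever its fold. All changes are relative to the scaling, which sets the centre: the median tested model stood at -0.10 on the log2 scale here and at -0.60 with library size alone. The count depended strongly on which libraries entered. It was 0 without either 5-month library, where 1 library is assumed to vary like the rest (edgeR gave 2325 and 2894 with an unadjusted p below 0.05). DESeq2 called 1273 and 1476 there, and limma-voom with quality weights 958 and 614. Without 10-month replicates 1, 2 and 3 it was 870, 499 and 2735. A fit that also held the 2 libraries at 2 months called 229, of which 186 rose and 43 fell, and all 229 were among the 1424.

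Nearly all called changes were at least 2-fold, in 977 of the 982 rises and 435 of the 442 falls. Among rises the median log2 fold change was 1.76, with quartiles of 1.39 and 2.29, and 361 of 982 (36.8%) were at least 4-fold. Falls had a median of -1.72, with quartiles of -2.20 and -1.41, and 148 of 442 (33.5%) were at least 4-fold. Of all 14298 tested models, 5151 differed at least 2-fold and 9.82% at least 4-fold in the fit, called or not. Changes of at least 16-fold were seen in 32 rises and 9 falls. The smallest called changes were 0.92 on the log2 scale in either direction. A call depends on the fold change beside its standard error, and smaller changes were hard to call with these 5 libraries. The share of calls of at least 2-fold thus describes what the test could call, not how small the changes were.

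All of the 1424 models had 10-month libraries entirely above or entirely below both 5-month libraries. This alone separates little, since it held for 49.3% of all tested models (22.5% higher and 26.8% lower at 10 months). A wider gap was less common. In 674 of the 982 rises the lowest 10-month library was at least 2 times the highest 5-month library, and in 288 of the 442 falls the lowest 5-month library was at least 2 times the highest 10-month one. Over all tested models, with each taken in the direction of its fold change, 1626 had such a gap.

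**Figure D3:**
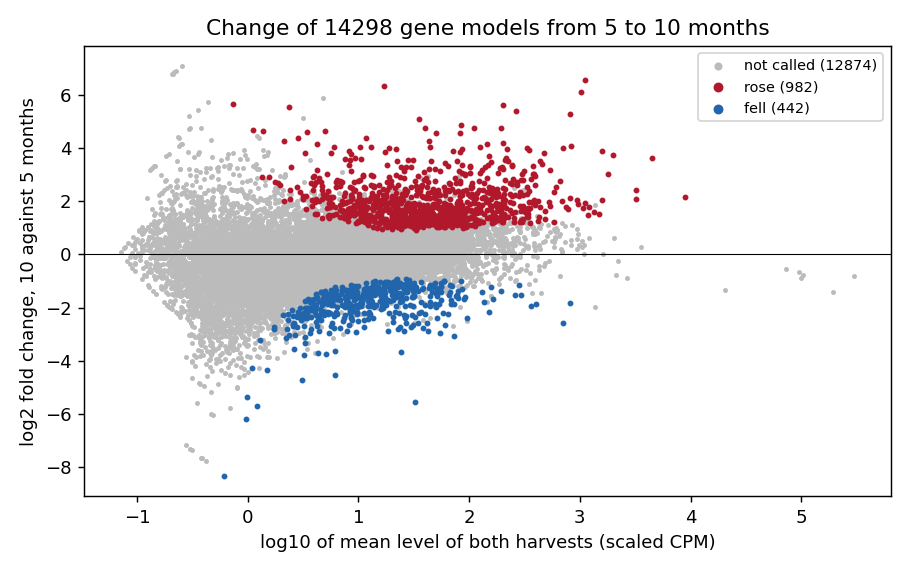
Log2 fold change at 10 against 5 months for 14298 gene models, against the log10 of the average of both harvest means in scaled CPM. Red points rose (982), blue points fell (442) and grey points were not called (12874). The called falls thin out above a level of 100 scaled CPM, where red points are frequent.

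Gene model 425196 (933 bp) had the largest rise among models with a mean of at least 20 scaled CPM in the higher harvest. It stood at 28.5 and 18.2 scaled CPM at 5 months and at 2474, 3528 and 630 at 10 months. Even the lowest 10-month library, replicate 3, was far above both 5-month values, but the 10-month libraries differed among themselves by several-fold. The mean went from 23.3 ± 7.29 (SD, n = 2) to 2211 ± 1467 (SD, n = 3). The log2 difference was 6.57 ± 0.85 (SE), at an adjusted p of 0.00541 by edgeR. All of its reads were unique. Without 10-month replicate 3 the log2 fold change was 7.06.

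Gene model 512077 (1089 bp) had the largest fall among models with at least 20 scaled CPM at 5 months. Its level was 57.1 and 70.2 scaled CPM at 5 months and 1.57, 1.82 and 0.617 at 10 months. These values rest on 1189 and 3661 reads at 5 months and on 55, 56 and 15 reads at 10 months. Both harvests were narrow beside the distance between them, with means of 63.7 ± 9.24 (SD, n = 2) and 1.34 ± 0.636 (SD, n = 3). The log2 difference was -5.55 ± 0.43 (SE), at an adjusted p of 0.00283 by edgeR, and reads were still found in every 10-month library.

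Gene model 390277 (2339 bp) had the highest 5-month level of the other falls. It stood at 1649 and 883 scaled CPM at 5 months and at 355, 388 and 341 at 10 months. The 10-month libraries lay close together, whereas the 5-month libraries differed by more from each other than the lower of them did from the 10-month values. The mean went from 1266 ± 541 (SD, n = 2) to 361 ± 24.0 (SD, n = 3). On the log2 scale the difference was -1.81 ± 0.34 (SE), at an adjusted p of 0.0152 by edgeR. Leaving out 5-month replicate 1 gave -1.28, and leaving out 5-month replicate 2 gave -2.18. Per kilobase, the 5-month level of this model was 541 scaled CPM, against 58.5 for gene model 512077 and 3771 for gene model 348936.

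**Figure D4:**
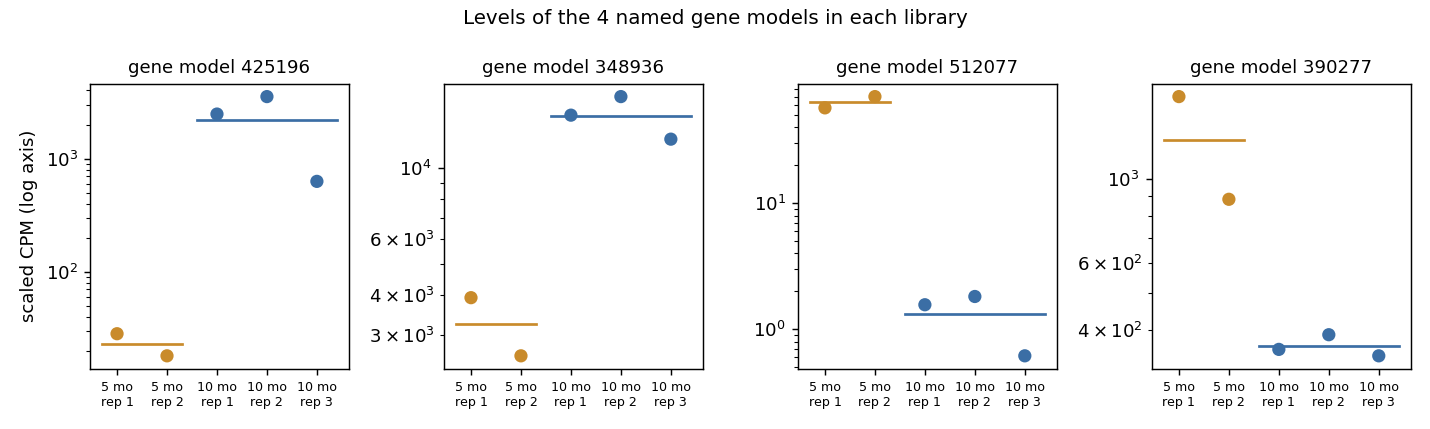
Scaled CPM (log axes with their own ranges) of the 4 named gene models in the 5-month (ochre) and 10-month (blue) libraries; each point is 1 library and each line a harvest mean. Gene models 425196 and 348936 are higher in every 10-month library, and 512077 and 390277 are lower in every 10-month library. The 10-month points of 425196 run from 630 to 3528.

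The 4 named models did not hold their calls equally across the alternatives. Gene models 425196 and 512077 stayed called in 14 of 17 alternatives, with log2 fold changes of 6.05 to 7.06 and of -6.06 to -5.18, and adjusted p of 2.12e-27 to 0.237 and of 1.49e-33 to 0.237. Gene model 390277 stayed called in 11 of 17 (log2 fold change -2.18 to -1.28, adjusted p 1.3e-06 to 1). Gene model 348936 stayed called in 9 of 16 (log2 fold change 1.91 to 2.51, adjusted p 4.39e-11 to 1), and the calls it lost include the fit with all 7 libraries, at an adjusted p of 0.289.

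Called rises were concentrated among well-expressed models, and called falls were not. Models were classed by the average of both harvests on the log2 scale, so that neither harvest weighs more. At 10 to 100 scaled CPM, 625 of 4850 tested models (12.9%) rose and 209 (4.31%) fell. At 100 to 1000, 178 of 552 (32.2%) rose and 13 (2.36%) fell. In the top class of 1000 and over, 9 of 27 rose and 0 fell. At 1 to 10 scaled CPM the balance was the other way, with 169 of 7107 (2.38%) rising and 219 (3.08%) falling. Only 1 rise and 1 fall were called among the 1762 models under 1 scaled CPM. Standard errors were larger at low levels, so changes there were harder to call. The shares by level thus mix change with the ability to call it.

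The median of all tested models in a class, called or not, was highest at 100 to 1000 scaled CPM. It was -0.40 on the log2 scale at 1 to 10 scaled CPM, 0.23 at 10 to 100, 0.83 at 100 to 1000 and 0.37 in the small top class. The median rise went from 17.3 scaled CPM at 5 months to 58.4 at 10 months, and the median fall from 16.8 to 5.31. For comparison, the median tested model stood at 5.44 at 5 months and at 4.85 at 10 months.

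Models that fell were on the whole longer than those that rose. Lengths were set in 4 classes of nearly equal size. The median length was 1862.5 bp among falls, 1349 bp among rises and 1431 bp among all tested models. In the shortest class of tested models (150 to 976 bp) 268 of 3575 rose (7.5%) and 27 fell (0.755%). In the longest class (2006 bp and over) 193 of 3575 rose (5.4%) and 183 fell (5.12%). Longer models also collected more reads, with a median of 304.8 per library in the longest class against 98.4 in the shortest.

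The 5-month libraries differed from each other along the same axis. The median log2 difference of 5-month replicate 1 from replicate 2 was -0.28 in the shortest class and 0.25 in the longest. Against the 5-month mean, the shortest class stood at 0.27, 0.14 and -0.07 in 10-month replicates 1, 2 and 3, and the longest at -0.26, -0.20 and -0.26. The longest class was thus lower in all 3 libraries at 10 months than in either 5-month library (0.13 and -0.13). The shortest was above the 5-month mean in 10-month replicates 1 and 2 only, and 5-month replicate 2 itself stood at 0.14. The part of this difference between libraries in the falls of long models was not tested.

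**Figure D5:**
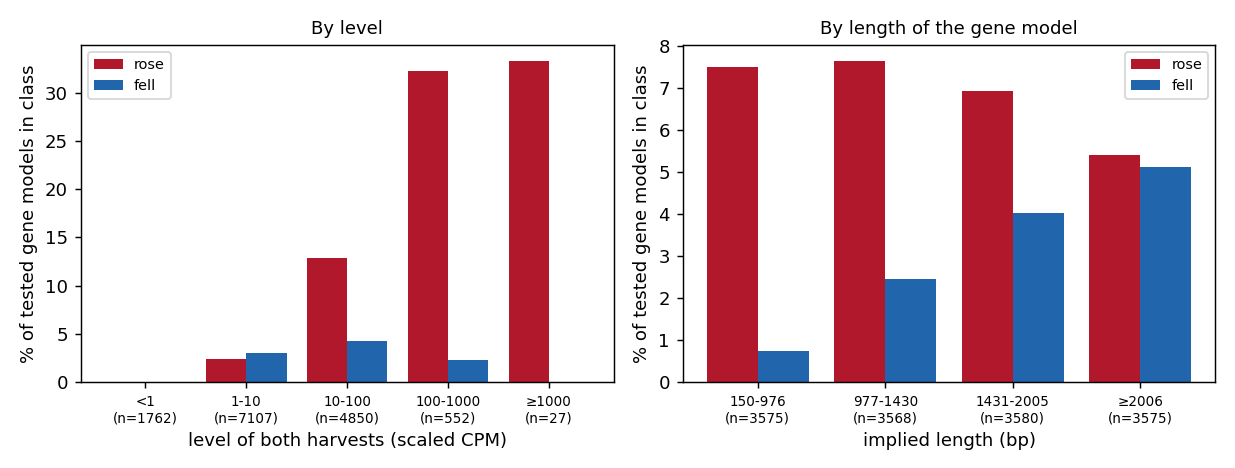
Share of tested gene models that rose (red) or fell (blue) at 10 against 5 months, by level of both harvests (left) and by implied length in 4 classes (right), with the number tested under each class. The share that rose climbs from 2.38% at 1 to 10 scaled CPM to 32.2% at 100 to 1000, and the share that fell climbs from 0.755% in the shortest class to 5.12% in the longest.

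Fewer models made up the bulk of the remaining reads in each 10-month library. Outside the 8 abundant models, 50% of the reads were held by 627 and 889 gene models at 5 months and by 430, 375 and 378 at 10 months. Both 5-month values lay above all 10-month values. Mean values were 758 ± 185 (SD, n = 2) and 394 ± 30.9 (SD, n = 3), and the exact two-sided permutation p was 0.2, the smallest that 3 against 2 allows. For 90% of these reads, 4692 and 5404 models were needed at 5 months and 3875, 3710 and 3528 at 10 months, with the same p of 0.2. This measure uses shares within a library, so it does not depend on the scaling between libraries.

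The models that rose took a much larger part of the remaining reads at 10 months. Since they were selected by this same contrast, the shares are a description. Outside the 8 abundant models, 981 risen models held 12.6% and 14.03% of the reads at 5 months and 37.6%, 38.6% and 37.0% at 10 months. The 442 fallen models went from 5.86% and 6.14% to 1.24%, 1.24% and 1.14%. Shares within one harvest were close, but the test favours models with little spread within a harvest. The share of the abundant models in the same libraries ran from 30.0% to 86.9%.

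The models with the highest level per kilobase differed more between the harvests than within them. Outside the 8 abundant models, the 100 strongest of each library were compared in pairs. The 5-month libraries shared 75 of 100, and the 10-month libraries shared 75 to 83. Pairs of libraries from different harvests shared 46 to 59, and these ranges did not overlap. In the lists by harvest mean, 53 models were in both, and 47 stood in each list alone. The 10-month list held 55 called rises and 0 called falls, and the 5-month list held 15 and 6. Among all tested models 6.87% rose and 3.09% fell, but these lists hold only highly expressed models. In the class of 100 to 1000 scaled CPM (level not per kilobase), 32.2% of tested models rose and 2.36% fell. A high level at one harvest helped to choose these models, so the counts are a description.

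Few models were read in every library of one harvest and in no library of the other. Over all 19765 models, 25 had 0 reads in both 5-month libraries and at least 1 read in all 3 at 10 months, with at most 49 reads in a library. The filter on low counts kept 4 of these 25 for the test, and 0 were called. The reverse pattern, 0 reads in all 3 libraries at 10 months and at least 1 in both at 5 months, was found for 225 models with at most 57 reads, of which 7 were tested and 1 was called. A count of 0 allows up to 3 reads, or 0.0575 to 0.144 scaled CPM depending on the library, for counting error only. The 32 rises of at least 16-fold were increases from a low level, with a median of 3.42 scaled CPM at 5 months and 79.7 at 10 months, and none of them started from 0 reads in both libraries.

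The number of models detected at equal depth was lower at 10 months on average, but the harvests overlapped. At 6880842 reads outside the 8 abundant models, 15151 and 16755 models were expected with at least 1 read at 5 months and 15592, 15386 and 13152 at 10 months. The means were 15950 ± 1130 (SD, n = 2) and 14710 ± 1350 (SD, n = 3), with an exact two-sided permutation p of 0.6. Counting models with at least 5 reads, the 5-month values of 13909 and 14912 lay above all 10-month values of 13167, 12965 and 12196, with a p of 0.2.

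The size of the called changes in each 10-month library is a description, since the models were called on these same libraries and do not overlap between harvests. Against the 5-month mean, the median log2 difference of the 982 rises was 1.68, 1.77 and 1.7 in replicates 1, 2 and 3. For the 442 falls it was -1.67, -1.63 and -1.86. Within the 10-month harvest, the highest library was typically 1.51 times the lowest among rises and 1.51 times among falls (medians, with 0.5 scaled CPM added), against 1.65 times over all tested models. The largest changes varied more: among the 32 rises of at least 16-fold this ratio was 2.83, and replicate 3 was the lowest 10-month library in 62.5% of them, against 45.6% of all tested models.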

How the data were processed

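RNA of the 5 libraries was sequenced as paired reads of 125 bp, per the labels. For each library the authors deposited the count of unique reads, the count of total reads and an RPKM value per gene model, per the file headers. Aligner, counter, genome build, annotation and strand handling: not given in the sources used here. RPKM as deposited is total reads over model length and library total (tested on the files, to within 0.0045 bp of length), and was used for length alone.

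Total gene reads were filtered with filterByExpr (14298 of 19765 models kept), scaled by the median of ratios, since a few models take much of each library, and fitted with edgeR 4.0.16 (R 4.3.3, 3 residual degrees of freedom, biological coefficient of variation 46.8%). A standard error is the log2 fold change over the root of F. Alternatives used limma 3.58.1 and DESeq2 1.42.0. The fit was tested on simulated data. Numbers at equal depth are exact hypergeometric expectations. Wilson intervals (95%) and limits for 0 counts cover counting error only, because reads carry no molecular identifiers. Models were named among calls with no overlap and at least 20 scaled CPM in the higher harvest: the largest fold and the highest level of the others, in each direction. The comparison, lists, naming rule and use of 5 libraries were chosen with earlier results of these data known.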

Additional observations from a re-analysis of the deposited data

How the results depend on the processing

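The count of 1424 changed gene models was within 1.5 times under TMM factors, unique reads, a stricter filter, without the 8 abundant models and with their share as a covariate (an alternative chosen after seeing the data). It was 2315 with no low-count filter, 2769 with DESeq2, 2676 with limma-voom with quality weights, 229 with all 7 libraries and 272 with all 7 and TMM factors. Library size alone as the scaling left 0 calls by edgeR (265 with an unadjusted p below 0.05) and moved the median tested model from -0.10 to -0.60 on the log2 scale. Leaving out 1 library gave 0 to 2735. Beyond what fewer libraries or other filters entail, the cause was not tested. TMM, DESeq2, limma-voom, unique reads and the fit without the 8 models shared 1347 of the 1424 calls (948 rises, 399 falls). The fits that left out each 10-month library in turn shared 478 (377 rises, 101 falls). Rises made up 69% of the calls, 58.1% with limma-voom, 81.2% with all 7 libraries and 88.6% with all 7 and TMM factors.

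The replicate block gave 2302 calls, 1323 of them among the 1424. Replicate 3 exists only at 10 months, so the block fits that library exactly and it adds nothing to the contrast. This alternative thus resembles leaving out 10-month replicate 3, which gave 2735 calls, 1423 of them among the 1424. It differs in that it also fits a difference between replicates 1 and 2. The labels' replicate numbers pair no microcosms, and the deviations of same-numbered libraries correlated at -0.23 and -0.04 in 2 pairs. With 2 libraries at 5 months, their deviations mirror each other. The unlike-numbered pairs of replicates 1 and 2 therefore had the opposite signs (0.23 and 0.04), and these values cannot settle a pairing.

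For the share of reads on the 8 abundant models, the difference of -6.14 points reversed when 5-month replicate 1 (22.3) or 10-month replicate 1 (2.94) was left out, and ran from -34.6 to 22.3 over the libraries left out. The difference in models detected at equal depth ran from -1980 to -440.9, and that in models holding 50% of the other reads from -494.7 to -232.7. The -1980 came without 5-month replicate 1, where the equal depth was 11345883 reads instead of 6880842. With 3 libraries against 2, no value per library can pass the threshold, and changes of models under 1 scaled CPM were hardly detectable at this depth.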

Other observations

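The 2 libraries harvested at 2 months, which the comparison does not use, give another time point for the same gene models. On a median-of-ratios scale over all 7 libraries, the 982 models that rose had a median level of 23.8 scaled CPM at 2 months. Their medians at 5 and 10 months were 15.4 and 48.8. The mean at 2 months lay between those of the later harvests for 617 of them, below both for 270 and above both for 95. The 442 models that fell had medians of 5.94, 15.0 and 4.43 scaled CPM, with the 2-month mean between the later means for 199, below both for 197 and above both for 46. Over all tested models these shares were 24.4% between, 46.7% below and 28.8% above. The models were selected with the 5-month and 10-month libraries, so these counts are a description with no test. That selection takes models with a wide gap between the later means, which leaves more room for a 2-month mean between them. The shares over all tested models are therefore not a matched baseline.

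At 2 months, gene model 425196 stood at 4396 and 479 scaled CPM, gene model 348936 at 20480 and 9020, and gene model 390277 at 318 and 261. Gene model 512077 had 0 and 1 read there. Both 2-month values of 425196 and 348936 were above their 5-month values, and both of 390277 and 512077 were below them. The 2-month libraries differed widely in the reads left outside the 8 abundant models, at 16923473 and 2938002.

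Nearly all called models rested on uniquely placed reads: 11 of the 1424 had under 90% unique reads (0.772%), against 146 of the 14298 tested models (1.02%).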
